A study of Mus musculus with 5 samples.

Results

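Ch25h, the genes that process and sense its oxysterol product, and target genes of the liver X receptors (LXRs) were examined in the whole colon of mice given NT-3N, which stimulates the IL-11 receptor. The set held 10 genes, read by 14 probes, of 32917 features tested and 56605 probes on the array. They were Ch25h, Cyp7b1, Hsd3b7, Gpr183, Cyp27a1, Nr1h2, Nr1h3, Abca1, Abcg1 and Mylip. The set was chosen from the same contrast of NT-3N with Control that is described here, because Ch25h was among the genes called in it, and the other 9 were added as its pathway. Their differences between the groups are therefore given as a description with no test.

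RNA of colon tissue was labelled with Cy3 and hybridised to 5 single-colour Agilent arrays, each for 1 wild-type mouse of the strain given as C57BL/B6, at 8 weeks of age for the injected mice per the study. NT-3N, a modified human IL-11 made for greater stability and activity, was injected intravenously and the colon was taken 3 h later (NT-3N, n = 3 mice). The 2 other mice were labelled Control and were untreated per the study. The sex of the mice is not given in the sources used here. The unit of the dose differs between the series text and the methods, so no dose is given. All levels are log2 quantile-normalised signals, on which 1 unit is a doubling, and a level of one probe is not comparable with that of another.

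The enzyme encoded by Ch25h adds a hydroxyl group to the side chain of cholesterol. The resulting oxysterol is a ligand of the LXRs, which switch on genes for cholesterol export, and it also restrains the SREBP pathway of cholesterol synthesis. Further hydroxylation by Cyp7b1 turns it into the attractant that the receptor Gpr183 (EBI2) senses on B cells, dendritic cells and innate lymphoid cells, and in the gut this guides such cells into lymphoid structures. Hsd3b7 converts that attractant into a form the receptor no longer senses.

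The promoters of Ch25h, the member whose level differed most, of Abca1, the best known LXR target among the members, and of Hsd3b7 are printed because they hold letters for factors that bear on this pathway or on IL-11 signalling. Each run covers 250 bases before and 50 after the start site used, 5′ to 3′ on the strand of the gene, from RefSeq sequence of build GRCm38.p6. For Abca1 this site lies inside the annotated gene, whose 5′ end is at chr4:53159988. The window of Ch25h lies at chr19:34475099-34475398 on the minus strand, that of Abca1 at chr4:53159846-53160145 on the minus strand and that of Hsd3b7 at chr7:127800359-127800658 on the plus strand. Capitals mark, in order, a TATAAA match, a C/EBP match and a CRE match in Ch25h, then an E-box, a match to the DR4 type of LXR element and a TATAAA match in Abca1, and a STAT match in Hsd3b7.
Ch25h: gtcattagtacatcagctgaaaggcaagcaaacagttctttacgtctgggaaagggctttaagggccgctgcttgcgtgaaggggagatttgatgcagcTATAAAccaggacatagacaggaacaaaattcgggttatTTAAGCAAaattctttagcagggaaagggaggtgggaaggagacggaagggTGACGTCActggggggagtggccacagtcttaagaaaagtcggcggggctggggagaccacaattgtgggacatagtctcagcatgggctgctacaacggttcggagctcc
Abca1: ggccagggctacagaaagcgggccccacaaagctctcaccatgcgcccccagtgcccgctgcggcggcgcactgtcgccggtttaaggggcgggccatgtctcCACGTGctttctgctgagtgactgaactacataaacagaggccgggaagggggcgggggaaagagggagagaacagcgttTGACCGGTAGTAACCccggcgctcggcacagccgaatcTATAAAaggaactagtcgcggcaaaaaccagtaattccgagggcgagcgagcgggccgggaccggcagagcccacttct
Hsd3b7: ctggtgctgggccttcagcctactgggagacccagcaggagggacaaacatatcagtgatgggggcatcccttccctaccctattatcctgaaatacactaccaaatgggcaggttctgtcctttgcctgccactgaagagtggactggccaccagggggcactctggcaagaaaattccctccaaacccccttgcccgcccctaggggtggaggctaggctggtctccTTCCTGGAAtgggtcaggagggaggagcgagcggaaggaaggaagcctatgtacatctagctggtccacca

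Promoters were found for 8 of the 10 members, with 9 windows in all because Nr1h3 had 2, and Cyp7b1 and Abcg1 had none in the table used. Both strands were searched for 11 motifs, with N for any base. The letters TTCNNNGAA were searched as a STAT site and TTGCNNAA as a C/EBP site. For an AP-1 site they were TGANTCA and for a CRE, the site of cyclic AMP-responsive factors, TGACGTCA. An E-box was CACGTG and a GC box was GGGCGG. The sterol-responsive SRE was searched as TCACNCCAC and the core promoter TATA box as TATAAA. The interferon element ISRE was searched as GAAA, any 2 bases and GAAA, and the NF-kB site as GGG, any 2 bases and TTTCC. The LXR element DR4, a direct repeat of the half-site GGTNA with 5 bases between, completed the search. The CRE was added after the promoter of Ch25h had been read. Matches were counted also where they overlapped.

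Positions count from the start site used for each window. In Ch25h the C/EBP letters lay at -112, on the minus strand of the window, and occurred in 10.8% of the 32851 promoters in the table. Its CRE letters, at -61, occurred in 1.79% of promoters, and its TATAAA, at -151, in 13.6%. The STAT letters, which match the sites bound by STAT3 downstream of IL-11 receptors, were not in this window of Ch25h and were in 8.3% of all promoters, among them that of Hsd3b7 at -21. In Abca1 the DR4-type letters lay at -67, on the minus strand of the window, and occurred in 0.718% of promoters. Its E-box letters, at -147, occurred in 7.15%. The GC box, in 35.7% of promoters, was in those of Abca1, Hsd3b7, Cyp27a1 and Mylip. C/EBP letters were also in the Gpr183 window and TATAAA in that of Mylip, and the windows of Nr1h2 and Nr1h3 held none of the motifs. Both Nr1h3 windows lie inside the annotated gene, reaching chr2:91195366 where its 5′ end is at 91202829. The region at that 5′ end was therefore not searched. The Cyp27a1 window also lies inside its gene. A match of letters is a description of the sequence and was not tested for binding.

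**Figure D1:**
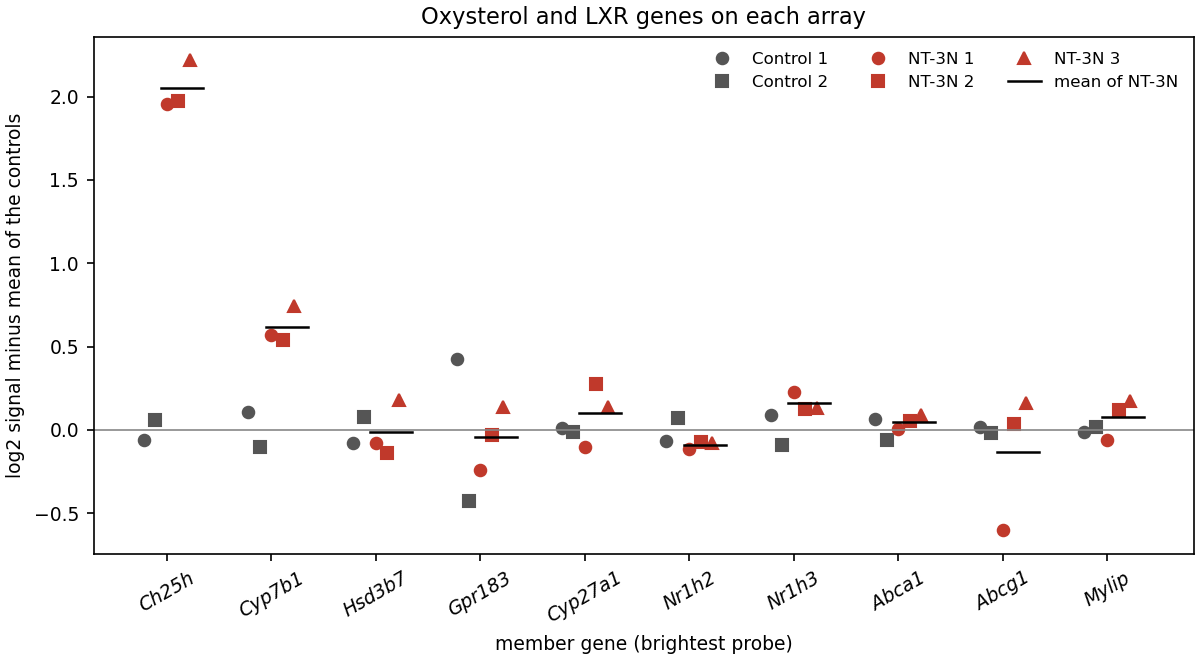
Log2 signal of each member gene (brightest probe) on each array, minus the mean of the 2 control arrays; grey points are Control, red points NT-3N, shapes mark the array number within its group, and lines mark the mean of the 3 NT-3N arrays. Ch25h and Cyp7b1 stand clear of the controls on all 3 NT-3N arrays, and the spread within a group is widest for Gpr183 in Control and Abcg1 in NT-3N.

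Ch25h was about 4 times as high in NT-3N colon as in Control colon. Its log2 level was 7.30 and 7.42 on the control arrays and 9.31, 9.34 and 9.58 on the NT-3N arrays. All 3 NT-3N arrays were above both controls, with a gap of 1.89 between the nearest arrays of the groups, far more than the spread inside either group. The means were 7.36 ± 0.087 (SD, n = 2) and 9.41 ± 0.15 (SD, n = 3), a log2 fold change of 2.05 (SE 0.13) or 4.14-fold. Before normalisation the processed signal was 144 and 176 in Control and 556, 748 and 818 in NT-3N, so the probe was well above the array background in both groups.

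Cyp27a1 encodes the mitochondrial enzyme that makes another side-chain oxysterol, and its groups overlapped. Its log2 level was 7.18 and 7.15 in Control and 7.06, 7.44 and 7.31 in NT-3N, a log2 fold change of 0.10 (SE 0.16). The lowest and the highest of the 5 levels were both on NT-3N arrays.

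Cyp7b1, which acts on the product of Ch25h, was also higher on every NT-3N array than on either control array, by less than Ch25h. Its brighter probe read 7.35 and 7.14 in Control and 7.81, 7.78 and 7.99 in NT-3N, a gap of 0.44 between the groups and a log2 fold change of 0.62 (SE 0.14), or 1.53-fold. Its further probe, designed to a predicted transcript, read 5.58 and 5.64 in Control and 5.80, 5.77 and 5.77 in NT-3N, a log2 fold change of 0.17. The 2 probes thus had the same direction without overlap and different sizes. With the normexp background correction the brighter probe differed by 0.44 and the further one by 0.04.

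Hsd3b7, which acts on the product of Cyp7b1, did not separate the groups. Its log2 level was 12.09 and 12.24 in Control and 12.08, 12.02 and 12.34 in NT-3N, a log2 fold change of -0.01 (SE 0.12). NT-3N arrays held both the highest and the lowest value, and the sign of the difference was the other way in 4 of 11 alternative settings.

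Gpr183, the receptor at the end of this branch, varied more between the 2 control mice than between the groups. Its log2 level was 6.53 and 5.67 in Control and 5.86, 6.07 and 6.24 in NT-3N, so that all 3 NT-3N values lay between those of the controls. The log2 fold change was -0.05 (SE 0.29), and it became 0.38 without Control 1 and -0.47 without Control 2.

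The LXRs, Nr1h3 (LXRα) and Nr1h2 (LXRβ), differed by little. For Nr1h3 the log2 level was 11.27 and 11.09 in Control and 11.41, 11.31 and 11.31 in NT-3N, a log2 fold change of 0.16 (SE 0.097) with a gap of 0.036 between the groups. Its further probe read 10.34 and 10.14 against 10.42, 10.35 and 10.34, a log2 fold change of 0.13 and a gap of 0.0011. Both probes of Nr1h3 were thus higher on all 3 NT-3N arrays, by gaps smaller than the distance between the 2 controls.

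Nr1h2 was the 1 member that was lower on all 3 NT-3N arrays, at 13.12 and 13.26 in Control and 13.07, 13.11 and 13.11 in NT-3N, and the gap was only 0.0048. Its log2 fold change was -0.09 (SE 0.079). Its further probe had the same log2 fold change, -0.09, from 8.40 and 8.19 in Control and 8.23, 8.21 and 8.18 in NT-3N, but there the groups overlapped.

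The LXR targets among the members showed no separation of the groups. Abca1, an exporter that passes cholesterol to lipid-poor apolipoprotein, read 8.45 and 8.33 in Control and 8.40, 8.44 and 8.48 in NT-3N, a log2 fold change of 0.05 (SE 0.11). Its further probe was dim, well above background on 4 of 5 arrays, and differed by 0.0078. Both controls and all 3 NT-3N arrays of the brighter probe lay within 0.15 of each other.

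Abcg1, which exports cholesterol to lipoprotein particles, read 9.20 and 9.16 in Control and 8.58, 9.22 and 9.35 in NT-3N. The first NT-3N array stood apart below all others while the other two NT-3N arrays were above both controls. The log2 fold change was -0.14 (SE 0.23), and it was 0.10 without NT-3N 1. Mylip (IDOL), a ubiquitin ligase that targets the LDL receptor for degradation, read 10.14 and 10.17 in Control and 10.09, 10.28 and 10.33 in NT-3N, a log2 fold change of 0.08 (SE 0.11) with overlap.

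Across the 10 members, 6 had a log2 fold change above 0 and 4 below, against 46.4% above 0 among all features tested. Of the members, 3 were higher without overlap (Ch25h, Cyp7b1 and Nr1h3) where 13.5% of features were, and 1 was lower without overlap (Nr1h2) where 14.8% of features were. The median log2 fold change was 0.06 for the 10 members, 0.05 for the 9 other than Ch25h, which ranged from -0.14 to 0.62, and -0.02 for all features tested. In limma's fit over all 32917 features, with adjusted p under 0.05 as the threshold, 1 of the 10 members (Ch25h) was called, higher in NT-3N, beside 0.143% of all features. At an unadjusted p under 0.05, 2 members were higher (Ch25h and Cyp7b1) and 0 lower, beside 4.95% and 4.67% of features. These counts use the contrast by which the set was chosen, and nothing is read from them. Ch25h was not called in 5 alternative settings: without NT-3N 2 (adjusted p = 0.063 in limma), without NT-3N 3 (0.079), without the filter on dim probes (0.072), without the intensity trend (0.057) and with the replicate number as a block (0.35). Only NT-3N 3 has replicate number 3, so the block and leaving out that array gave the same log2 fold change for Ch25h, 1.97. The log2 fold change of Ch25h stayed between 1.76 and 2.11 in all alternative settings.

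The genes whose levels followed Ch25h most closely were sought among 16733 genes well above background on all 5 arrays, by the Euclidean distance between log2 levels centred on the mean of each gene over the 5 arrays. The nearest were Gem, a small GTP-binding protein, at a distance of 0.12, Osmr, the oncostatin M receptor, at 0.26, Ctps, a CTP synthase, at 0.26, Lrg1, a secreted leucine-rich glycoprotein, at 0.33, and Ifitm1, an interferon-induced membrane protein, at 0.34. Gem read 8.35 and 8.47 in Control and 10.48, 10.50 and 10.66 in NT-3N, so that like Ch25h it was lowest on Control 1 and highest on NT-3N 3. With 5 arrays in 2 groups, nearness to Ch25h mostly ranks genes by a rise of similar size: the log2 fold changes of these 5 genes ran from 1.77 (Ifitm1) to 2.14 (Gem).

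**Figure D2:**
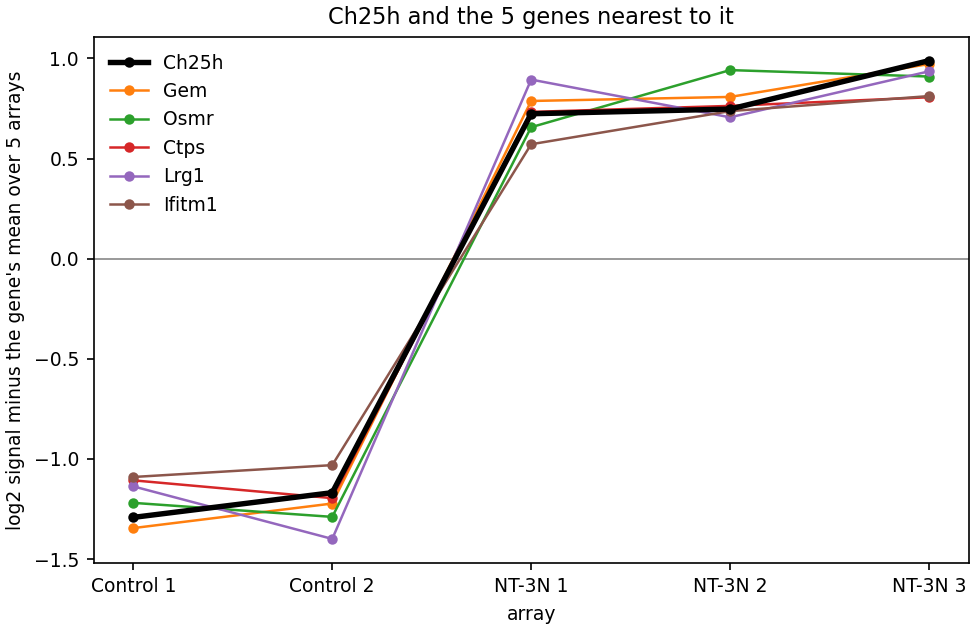
Log2 signal of Ch25h and of the 5 genes nearest to it, each minus its own mean over the 5 arrays; lines join the points of 1 gene and carry no order of the mice. All 6 genes are low on both control arrays and high on all 3 NT-3N arrays.

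Genes of the same pathways that were not among the members were read from 6 lists. Of their 114 genes, 105 were tested and limma called 0 at adjusted p under 0.05, while 17 had an unadjusted p under 0.05. Of the 17, 9 were interferon-stimulated genes. Among all features tested, 4.95% were higher and 4.67% lower at that threshold, and these shares stand beside the counts of each list below. The local-pooled-error test that the methods name called 15 interferon-stimulated genes and 1 gene of cholesterol synthesis, and 0 in the other 4 lists.

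Other LXR target genes lay on both sides of 0, with 5 above and 10 below. Of 15 tested, 0 were called by limma, 1 was higher and 3 were lower at an unadjusted p under 0.05, and their median log2 fold change was -0.16, or -0.08 without NT-3N 1. Abcg5, one part of a sterol transporter that returns sterols to the gut lumen, read 9.13 and 9.39 in Control and 9.81, 9.94 and 10.39 in NT-3N. Its groups did not overlap, and its log2 fold change of 0.79 (SE 0.19) had an adjusted p of 0.29 in limma. For Abcg8, the partner of Abcg5, the groups overlapped, at 8.14 and 8.35 in Control and 8.22, 8.33 and 8.67 in NT-3N. The log2 fold change of Abcg8 was 0.16 (SE 0.17, adjusted p = 0.79 in limma).

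Lpl, a lipase of the vessel wall, had a log2 fold change of -0.59 (SE 0.21, adjusted p = 0.47 in limma), with all 3 NT-3N arrays lower than both controls. Abca7, another lipid transporter, had one of -0.31 (SE 0.089, adjusted p = 0.37 in limma), also without overlap.

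The 10 tested receptors and coregulators that work with the LXRs ranged from -0.14 to 0.09, with 0 called by limma and 0 at an unadjusted p under 0.05. Nr0b2 was not well above background on any array.

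Among the other sterol hydroxylases and bile acid enzymes, 9 of 14 were tested, 0 were called by limma and 2 were lower at an unadjusted p under 0.05, with a median log2 fold change of -0.17. The remaining 5 (Cyp11a1, Cyp7a1, Cyp8b1, Akr1d1 and Baat) were not well above background on any array. Slc27a5, which activates bile acids, had a log2 fold change of -0.57 (adjusted p = 0.50 in limma), and Cyp46a1, which makes a side-chain oxysterol known from brain, one of -0.46 (adjusted p = 0.65 in limma), both without overlap of the groups. For Cyp46a1 it was -0.19 without NT-3N 1, its lowest array, and for Slc27a5 it was -0.24 with the normexp background correction. The median of the list was -0.08 without the filter on dim probes.

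Of 28 genes of sterol sensing, transport and storage, 0 were called by limma, 2 were higher at an unadjusted p under 0.05 and the median log2 fold change was 0.03. Soat2, which esterifies cholesterol, read 6.74 and 7.27 in Control and 7.57, 7.65 and 7.58 in NT-3N, a log2 fold change of 0.59 (adjusted p = 0.40 in limma). Insig1 is a protein through which side-chain oxysterols hold back SREBP processing. It read 8.69 and 8.36 in Control and 8.94, 9.26 and 8.80 in NT-3N, a log2 fold change of 0.47 (adjusted p = 0.48 in limma). Both were higher on every NT-3N array than on either control. The value of Soat2 was 0.33 without Control 1 and that of Insig1 was 0.31 without Control 2. Insig2 had a log2 fold change of -0.02, with overlap of the groups.

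The 21 genes of cholesterol synthesis and uptake, which side-chain oxysterols are known to restrain through SREBP, had a median log2 fold change of 0.07, with 0 called by limma and 0 at an unadjusted p under 0.05. The median changed sign in 2 of 14 alternative settings, to -0.03 without Control 2 and -0.10 without NT-3N 2. Of the 21 genes, 17 were highest on NT-3N 2, so the NT-3N mice differed among themselves. Tm7sf2 was not well above background on Control 1, at 2.39, and read 12.38 on Control 2, and no fold change is given for it.

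Interferon-stimulated genes were included because Ch25h is itself induced by interferons in macrophages. The part of interferon in the level of Ch25h was not tested. Of 22 tested, 21 had a log2 fold change below 0, with a median of -1.17, and 9 were lower without overlap, beside 14.8% of all features. At an unadjusted p under 0.05, 9 were lower, but limma called 0 after adjustment. The median was -0.75 without NT-3N 2. Rsad2 (viperin) read 10.67 and 11.74 in Control and 10.17, 7.85 and 9.47 in NT-3N, a log2 fold change of -2.05 (SE 0.67, adjusted p = 0.43 in limma). All 22 genes were lowest on NT-3N 2, where Ch25h, at 9.34, lay between its other NT-3N levels. With each gene centred on its own mean, their median level was 0.35 on Control 1 and 1.02 on Control 2. It was 0.39 on NT-3N 1, not below Control 1, -1.30 on NT-3N 2 and -0.43 on NT-3N 3. Usp18, which damps interferon signalling, had a log2 fold change of -1.93 (adjusted p = 0.44 in limma), or -1.27 without NT-3N 2. Mx1 and Mx2 were not matched on the array. Ifitm1, named above as interferon-induced, was not on this list and had a log2 fold change of 1.77.

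**Figure D3:**
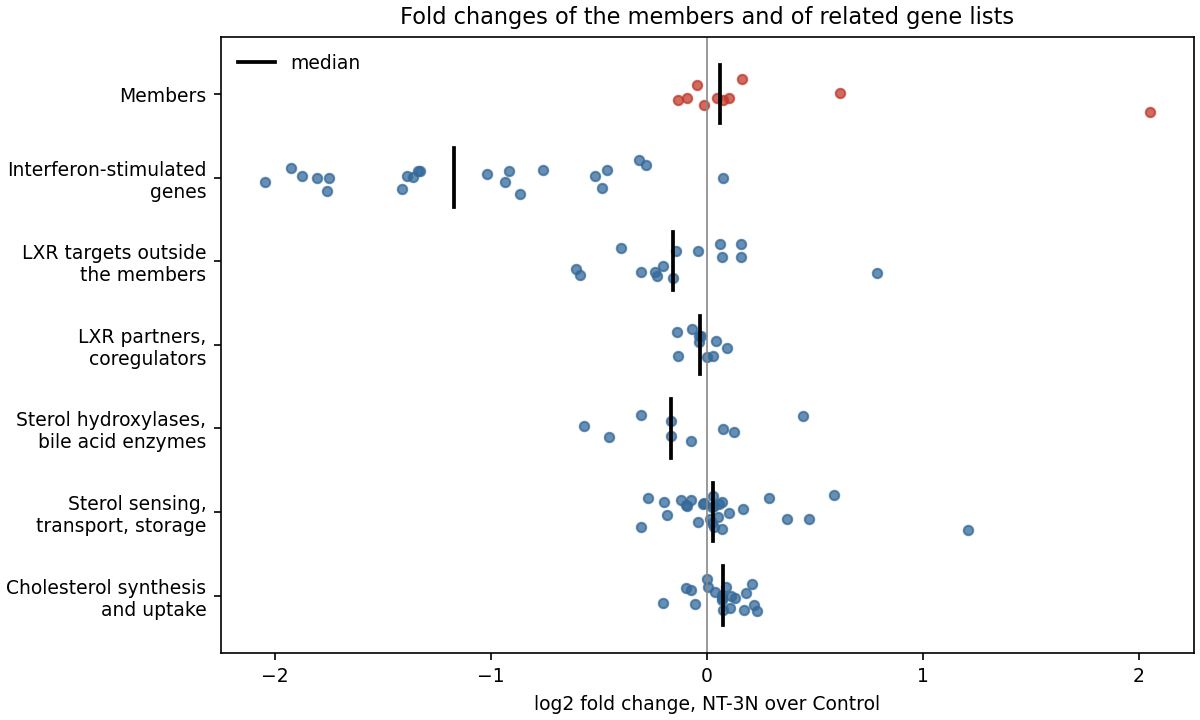
Log2 fold change of NT-3N over Control for the 10 members (red) and for each tested gene of the 6 related lists (blue), with black lines at the medians; Tm7sf2 is counted in its median but not drawn, since its signal was not above background on 1 control array. Ch25h lies at 2.05, apart from the other members, and the interferon-stimulated genes lie mostly below 0 with a median of -1.17 (-0.75 without NT-3N 2).

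The tissue was bulk colon, so more RNA per cell and more cells of a type cannot be told apart in any of these differences. Each of the 10 markers of colon epithelium and the 8 of smooth muscle passed the background threshold on every array. Sums of markers are given as the log2 of their summed signals, which the brightest genes of a list set most. Dendritic cells can express Ch25h and Gpr183. Their 7 tested markers summed to 10.07 to 10.61 in Control and 10.68 to 10.82 in NT-3N. Xcr1 was not well above background on any array. Of the 7, 6 had a log2 fold change above 0, 2 of them without overlap, and 1 below. Ccr7 was low on Control 2, at 6.74 against 8.82 on Control 1 and 8.50 to 8.80 in NT-3N. Clec10a and Cd209a, the 2 without overlap, differed by 0.70 and 0.34, and Itgax by 0.34 with overlap. Flt3, Clec9a and Zbtb46 differed by 0.02, 0.06 and -0.09. The median log2 fold change of the 7 was 0.34. The 12 macrophage markers summed to 14.07 to 14.11 in Control and 13.88 to 14.35 in NT-3N. Of the 12, 7 had a log2 fold change above 0 and 5 below, with a median of 0.03. Mrc1, at 0.53, and Cd14, at 0.33, were the 2 higher without overlap, where 13.5% of all features were. The neutrophil genes S100a8 and S100a9 were well above background on 0 of 2 control arrays and on all 3 NT-3N arrays, while Cxcr2 was not on any, and the 4 tested genes of that list summed to 16.23 to 16.25 in Control and 15.97 to 16.24 in NT-3N, a sum set mostly by Csf3r. The part of these cells in the level of Ch25h was not tested.

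Markers of other cells also differed between single arrays. Of 10 B cell and follicle markers, 8 were lowest on Control 2, the array on which Gpr183 was lowest. The 10 summed to 10.74 to 12.77 in Control and 12.53 to 12.87 in NT-3N. Of 12 macrophage markers, 8 were lowest on NT-3N 1, the array on which Abcg1 was lowest, but so were 6 of 10 fibroblast and 5 of 8 smooth muscle markers and the members Cyp27a1, Nr1h2 and Mylip. For smooth muscle the summed signal was 18.86 to 18.91 in Control and 18.40 to 18.73 in NT-3N, and all 8 genes had a log2 fold change below 0, with a median of -0.29. The 8 tested innate lymphoid and T cell markers summed to 12.97 to 13.01 in Control and 12.55 to 12.71 in NT-3N, with Il23r and Ncr1 not well above background on any array. Fibroblast markers summed to 16.12 to 16.25 in Control and 16.00 to 16.56 in NT-3N, endothelial markers to 11.53 to 11.64 and 11.58 to 11.85, and epithelial markers to 20.31 to 20.33 and 20.21 to 20.35. The part of cell composition in the levels of Gpr183 and Abcg1 was not tested.

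**Figure D4:**
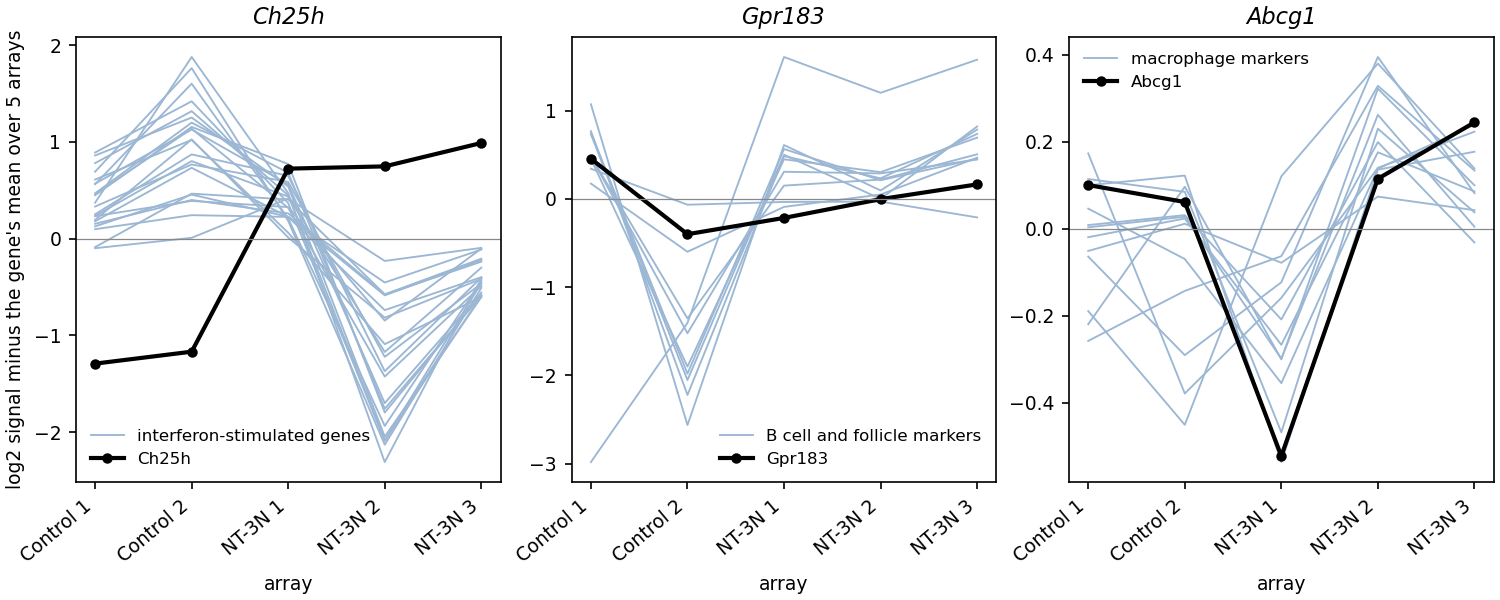
Log2 signal on each array, minus the mean of each gene over the 5 arrays, for Ch25h beside 22 interferon-stimulated genes, Gpr183 beside 10 B cell and follicle markers, and Abcg1 beside 12 macrophage markers; the member is black and the vertical scales differ between panels. Ch25h is high on all NT-3N arrays while the interferon-stimulated genes are lowest on NT-3N 2, Gpr183 is lowest on Control 2 and Abcg1 on NT-3N 1, where 6 of 10 fibroblast and 5 of 8 smooth muscle markers (not drawn) were lowest too.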

How the data were processed

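Total RNA of the colon was labelled with Cy3 and hybridised to Agilent SurePrint G3 mouse arrays. The deposited scanner files hold spot intensities (processed signals that Agilent Feature Extraction had corrected for background, version 11.0.1.1 per the submitters' processing notes). A second deposited file held log2 values that the authors had made for 37380 probes, which followed the log2 processed signals on every array and served as an alternative. No step used a genome alignment. On each array 70.6 to 73.1% of probes were well above background and 0 spots were saturated. The number of arrays limits the precision.

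Control spots and the 69 to 184 spots per array marked as outliers were left out, spots of a probe were averaged, and log2 signals were quantile normalised. To be tested, a probe needed 2 or more arrays well above background and a value on both control and at least 2 NT-3N arrays, and the brightest probe stood for a gene. Probes were named from the accessions in the scanner files through RefSeq, which matched 32994 of 56605. The contrast of NT-3N with Control was fitted in R 4.3.3 by limma 3.58.1 (lmFit, eBayes with an intensity trend, two-sided, Benjamini-Hochberg over all features); the local-pooled-error test of the methods was an alternative. The fit was tested on simulated data. The 5 arrays shared 1 slide and 1 scan time. The members and lists were chosen with earlier results of these data known. In each list the text names the called genes and at most 2 rises and 2 falls without overlap, largest first. Markers, genes that could not be tested, Insig2 and Abcg8, the partner of Abcg5, were named besides. No slide or scan block could be fitted. Some genes of the lists are not reported here by name.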

Additional observations from a re-analysis of the deposited data

How the results depend on the processing

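The log2 fold change of Ch25h was above 0 in all 11 settings that change its value, from 1.76 with normexp to 2.11 without Control 2, and it was called in 11 of 16 alternatives. Ch25h was chosen from this same contrast, so nothing is read from its calls. The fit reported above called 41 features higher and 6 lower. The lower count was 11 with the deposited log2 values and 13 when a probe had to be well above background on all 5 arrays. Array weights gave 126 higher and 46 lower, and the local-pooled-error test 194 and 154. Without the filter on dim probes there were 2 higher and 0 lower, and 2 and 0 again without the intensity trend, and in both settings 0 members were called by limma, where an unadjusted p under 0.05 was reached by 3941 and 3075 features. Leaving out 1 array at a time gave 0 to 112 features higher, 0 to 16 lower and 0 to 1 members called, the 0 coming without NT-3N 2 or NT-3N 3. Among cholesterol genes, leaving out 1 array gave 0 to 1 calls and the local-pooled-error test 1, each time Tm7sf2, whose call came without Control 2 and rested on 1 dim control spot. The local-pooled-error test called 15 interferon-stimulated genes. With the replicate number as a block, 0 features were higher, 0 lower and 0 members called, where 2488 features reached an unadjusted p under 0.05. The block gave the members the same log2 fold changes as leaving out NT-3N 3, the only array with that number. It also left fewer degrees of freedom. Deviations of arrays with the same number correlated at 0.13 and 0.036, and with only 2 such pairs the numbers were not taken to pair mice. With 2 control mice, small differences such as those of the LXRs could not be told from the spread, and the dim further probe of Abca1 was close to background.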
